A study of Mus musculus with 20 samples.

Results

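The genes described here are 9 genes of inhibitory neuron lineages, chosen by name from the 25965 rows of a table of RNA-seq counts: the distal-less homeobox genes Dlx1, Dlx2, Dlx5 and Dlx6, the noncoding RNA Dlx6as1 of the Dlx5 and Dlx6 locus, the LIM homeobox gene Lhx6, the zinc finger genes Sp8 and Sp9, and the chromatin organiser Satb1. Each name matched 1 row, and all 9 passed the filter on low counts. The choice was made with earlier results of these data known. Dlx6as1 was known to be raised in homozygous against wild-type mice, so that comparison is described here without a p for any of the 9 genes, as is the difference of Dlx6as1 between homozygotes and heterozygotes. Where counts of called genes include these, they are printed for completeness and nothing is read from them.

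The RNA came from the frontal cortex of C57BL/6 mice at 5 months of age with 0, 1 or 2 knock-in alleles at Tardbp. This gene codes for the RNA-binding protein TDP-43, and the allele changes the protein at Q331K. The groups were 6 wild-type libraries (+/+), 6 heterozygous libraries (Q331K/+) and 8 homozygous libraries (Q331K/Q331K). No library had any other labelled treatment or allele, and the labels do not say whether each library is a separate animal, so p-values measure only the spread between these samples, which may be technical. Levels are CPM, each gene's counts relative to the library's total, scaled with TMM factors, and values per length are RPKM, the same per kilobase of exon.

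Inhibitory neurons of the cortex arise in the ganglionic eminences of the embryo and migrate into the cortex. Dlx1 and Dlx2 act early in these progenitors and Dlx5 and Dlx6 act after them. Lhx6 marks the medial eminence lineage, which gives rise to interneurons with parvalbumin or somatostatin, and Satb1 acts in the maturation of that lineage. Sp8 and Sp9 act in lateral and caudal eminence lineages, which include interneurons of the olfactory bulb. Dlx6as1, also known as Evf2 or Dlx6os1, is transcribed from the strand opposite Dlx6.

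The 9 genes lie on 4 chromosomes (GRCm38). On chromosome 2, Dlx1 (71528113 to 71533981, plus strand) and Dlx2 (71543409 to 71546754, minus strand) are 9428 bases apart, and Sp9 (73271925 to 73284706, plus strand) and Lhx6 (36081950 to 36105408, minus strand) lie farther away on the same chromosome. On chromosome 6, Dlx6as1 (6820189 to 6869533, minus strand) spans the whole of Dlx6 (6863334 to 6868568, plus strand), and Dlx5 (6877805 to 6882085, minus strand) begins 8272 bases beyond it. Sp8 is on chromosome 12 (118846329 to 118852578, plus strand) and Satb1 on chromosome 17 (51736187 to 51833290, minus strand).

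The overlaps matter for reading the counts, because the strand setting of the read counting is not known here. Dlx6as1 and Dlx6 overlap over 5235 bases, but their annotated exons (GENCODE M21) share 0 bases. Dlx1 and the antisense gene Dlx1as share 335 exon bases, and Sp9 and Cir1, a gene on the opposite strand, share 270. Without a known strand setting, reads of these shared exons cannot be told apart. A further row, Dlx6as, shares 104 exon bases with Dlx6 and held 0 to 5 counts per library. The row Dlx6os2, inside Dlx6as1, held 0 or 1 count.

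Promoter sequences are shown for 3 of the genes: Dlx6as1, which differed most clearly between genotypes, Sp8, which had the largest log2 difference, and Lhx6, which differed in the opposite direction. Each is the 250 bases upstream of a transcription start in RefSeq (GRCm38.p6), written 5' to 3' on the strand of the gene. Capitals mark TAATT on either strand, so that it appears as TAATT or AATTA, a core bound by many homeodomain proteins including the Dlx family. TAATTA reads the same on both strands and holds both forms, which overlap.
Dlx6as1, chr6:6869534-6869783, minus strand: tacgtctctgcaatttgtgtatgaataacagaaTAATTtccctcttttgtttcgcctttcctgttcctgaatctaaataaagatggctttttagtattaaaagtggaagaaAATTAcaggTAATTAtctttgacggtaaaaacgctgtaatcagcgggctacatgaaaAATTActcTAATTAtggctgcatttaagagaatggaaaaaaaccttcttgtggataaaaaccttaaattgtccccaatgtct
Dlx6as1, second start, chr6:6861684-6861933, minus strand: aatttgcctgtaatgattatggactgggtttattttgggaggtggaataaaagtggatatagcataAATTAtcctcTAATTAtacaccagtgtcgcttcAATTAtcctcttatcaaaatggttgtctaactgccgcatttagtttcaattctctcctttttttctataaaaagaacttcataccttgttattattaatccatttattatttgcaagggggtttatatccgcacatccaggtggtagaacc
Sp8, chr12:118846079-118846328, plus strand: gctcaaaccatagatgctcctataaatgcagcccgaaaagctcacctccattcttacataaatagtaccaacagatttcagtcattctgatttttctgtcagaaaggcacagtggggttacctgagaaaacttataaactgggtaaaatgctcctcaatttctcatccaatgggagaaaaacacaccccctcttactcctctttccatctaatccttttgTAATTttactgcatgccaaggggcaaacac
Lhx6, chr2:36105409-36105658, minus strand: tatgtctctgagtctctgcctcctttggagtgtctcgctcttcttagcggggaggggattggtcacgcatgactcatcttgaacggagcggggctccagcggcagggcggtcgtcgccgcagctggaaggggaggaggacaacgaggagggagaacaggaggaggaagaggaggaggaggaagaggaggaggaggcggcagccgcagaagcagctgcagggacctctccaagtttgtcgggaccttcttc
The Dlx6as1 windows held 5 and 3 runs of capitals, with 2 and 1 copies of TAATTA, the Sp8 window held 1 run and the Lhx6 window 0. RefSeq gives 3 starts each for Sp8 and Lhx6, and the first is shown. Of the windows of the other starts, 1 of Sp8 holds a TAATTA and 1 of Lhx6 a TAATT. Over 32851 windows of the same length, TAATT was found in 25.0% and TAATTA in 4.84%. The Dlx6as1 windows are poor in G and C (33.2% and 34.0%), and among the 1644 windows of at most 35% G and C the shares were 78.5% and 22.4%. A match describes the letters only. The first Dlx6as1 window overlaps an exon of a longer Dlx6os1 transcript in GENCODE. RefSeq entries were also found for Dlx1, Dlx2, Sp9 and Satb1, and Dlx5 and Dlx6 had none.

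Library totals ran from 61282647 to 111440766 counts. Tardbp, the edited gene, was measured at a mean ± SD of 218 ± 5.53 CPM in the 6 wild-type, 230 ± 7.58 CPM in the 6 heterozygous and 245 ± 10.5 CPM in the 8 homozygous libraries. Markers of cortical excitatory neurons were high in every library, with a summed level of 6377 CPM or more over 8 genes. Several libraries stood apart in markers of neighbouring tissue. A list of 10 olfactory bulb markers summed to 42.0 to 58.3 CPM in wild type and 44.5 to 49.7 CPM in heterozygotes. In homozygotes it summed to 82.3 CPM in library 2, 113.0 CPM in library 5 and 127.2 CPM in library 8, and to 43.0 to 54.2 CPM in the other 5. Most of the wild-type sum was Tshz1, at 30.3 to 32.9 CPM. Eomes was at 3.56, 6.82 and 8.61 CPM in homozygous libraries 2, 5 and 8. It was at 1.67, 1.66 and 1.06 CPM in wild-type libraries 2, 3 and 4 and at 0.968 CPM in homozygous library 1. In the 6 heterozygous libraries it ran from 0.0336 to 0.604 CPM. In wild-type libraries 1, 5 and 6 it was at 0.0859 CPM or less. S100a5 was highest in wild-type library 3, at 1.90 CPM. Of the list's defining genes, Eomes was at 0 counts in 1 or more homozygous libraries, and S100a5 in 1 or more wild-type libraries. Heterozygous library 1 had the highest sum of 13 striatal medium spiny neuron markers, 694.4 CPM, against 302.2 to 365.0 CPM in wild type, 308.3 to 398.7 CPM in the other heterozygotes and 285.0 to 385.0 CPM in homozygotes. Isl1 and Six3 of that list were at 0 counts in 1 or more libraries. The sum of 8 ependymal markers, of the cells lining the ventricles, was 7.61 to 9.60 CPM in wild type. It was 7.95 to 16.4 CPM in heterozygotes and 7.83 to 24.3 CPM in homozygotes, highest in homozygous library 1. All 8 had a positive log2 difference of homozygotes from wild type (median 1.131) and of heterozygotes from wild type (median 0.622). Rsph1, in homozygotes against wild type, was the one gene called (0.39, edgeR adjusted p = 0.0416). Tmem212 was at 0 counts in 1 or more libraries. The part of this list in the results was not tested. The sum of 8 meningeal fibroblast markers was 52.6 to 100.4 CPM in wild type, 73.6 to 94.8 CPM in heterozygotes and 77.6 to 126.4 CPM in homozygotes. That of 9 choroid plexus markers was 3.44 to 7.57, 4.59 to 8.76 and 4.18 to 12.8 CPM. Both were highest in homozygous library 2, and no gene of either list was called in any comparison. Their part in the results was not tested. In bulk tissue, a change in the number of cells of a type and a change in RNA per cell cannot be told apart.

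**Figure D1:**
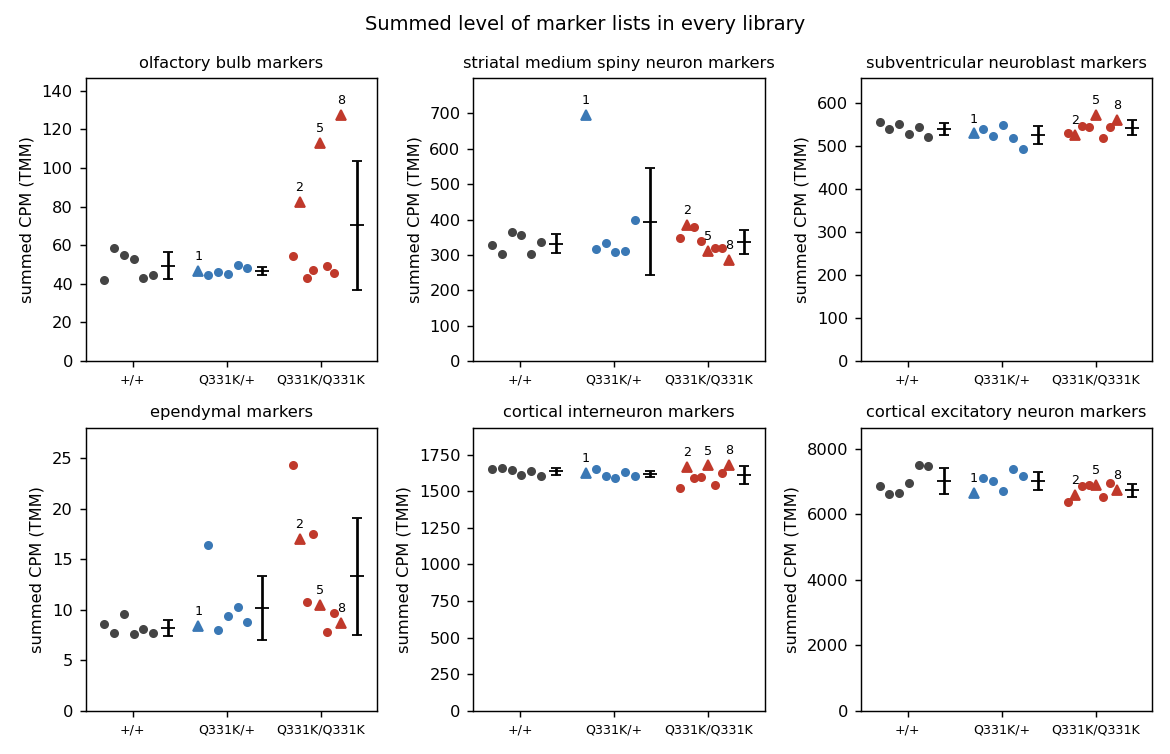
Summed CPM (TMM-scaled) of 6 marker lists on the y axis in every library, by Tardbp genotype on the x axis; bars are the mean and SD, and triangles mark homozygous libraries 2, 5 and 8 and heterozygous library 1. The olfactory bulb sum was 82.3, 113.0 and 127.2 CPM in the marked homozygous libraries and the striatal sum was 694.4 CPM in the marked heterozygous library.

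Per length, Satb1 was the most abundant of the 9 in wild type at 6.92 ± 0.167 RPKM (SD, n = 6). Lhx6 followed at 4.70 ± 0.382 RPKM (SD, n = 6) and Dlx1 at 4.57 ± 0.299 RPKM (SD, n = 6), and the ranges of these 2 genes overlapped. Dlx6as1 was next at 3.30 ± 0.265 RPKM (SD, n = 6). Dlx6 at 2.26, Dlx2 at 2.01 and Dlx5 at 1.77 RPKM each overlapped the next in this order. Sp9 at 0.804 and Sp8 at 0.358 RPKM were lowest, each apart from its neighbours. In heterozygotes the order was the same except that Dlx5, at 1.97 RPKM, stood before Dlx2, at 1.92 RPKM, with overlapping ranges. In homozygotes Lhx6, at 4.15 ± 0.246 RPKM (SD, n = 8), stood after Dlx1 at 5.15 ± 0.694 RPKM and Dlx6as1 at 4.21 ± 0.408 RPKM (SD, n = 8 for both), and from Satb1 to Lhx6 each range overlapped the next, as did those of Sp9 and Sp8.

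**Figure D2:**
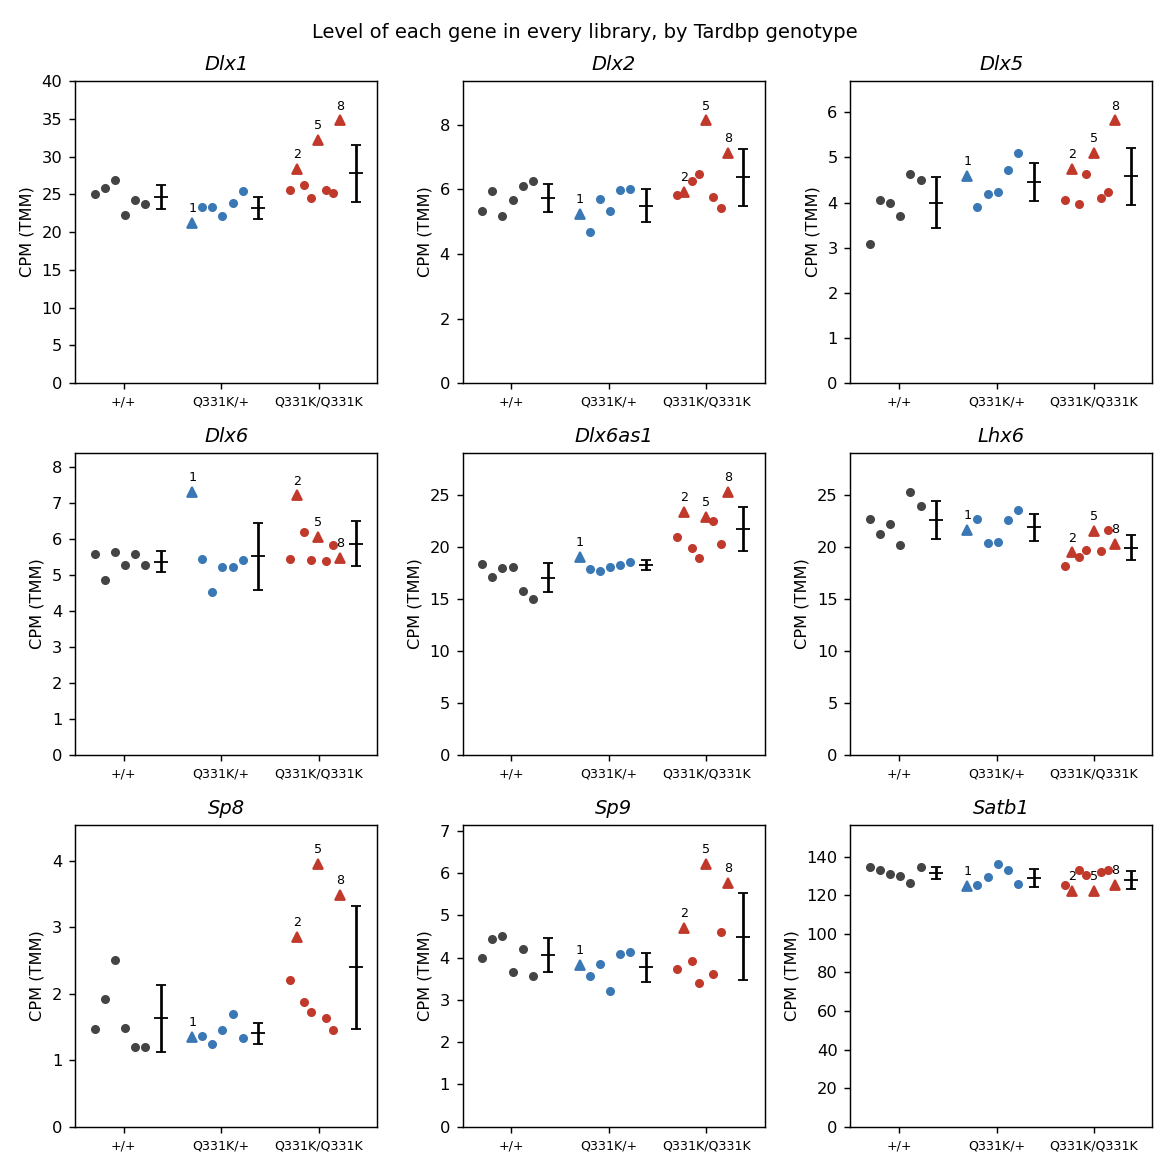
CPM (TMM-scaled) of each of the 9 genes on the y axis in every library, by Tardbp genotype on the x axis; bars are the mean and SD, and triangles mark the 4 libraries with high olfactory or striatal markers. All 8 homozygous libraries lie above all 6 wild-type libraries for Dlx6as1, at 19.0 CPM or more against 18.4 CPM or less, and the groups overlap for the other 8 genes.

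The early factors Dlx1 and Dlx2 were close between wild type and heterozygotes, and their highest values were in homozygotes. Dlx1 ran from 22.3 to 26.9 CPM in wild type (median 24.6), from 21.2 to 25.5 CPM in heterozygotes (median 23.3) and from 24.5 to 34.8 CPM in homozygotes (median 25.9). The 3 highest homozygous values, 34.8 CPM in library 8, 32.2 in library 5 and 28.4 in library 2, came from the libraries with high olfactory markers, and the other 5 lay within the wild-type range. The log2 difference of homozygotes from wild type was 0.17 (SE 0.069) with these 3 libraries and 0.04 without them. Against heterozygotes it was 0.26 (SE 0.070, edgeR adjusted p = 0.18), and 0.13 without the 3 libraries. Dlx1as, which shares exon bases with Dlx1, had a mean ± SD of 6.51 ± 0.367 CPM in the 6 wild-type, 6.19 ± 0.440 CPM in the 6 heterozygous and 6.49 ± 0.720 CPM in the 8 homozygous libraries.

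Dlx2, the neighbour of Dlx1, ran from 5.18 to 6.25 CPM in wild type (median 5.81), from 4.68 to 6.02 CPM in heterozygotes (median 5.51) and from 5.42 to 8.13 CPM in homozygotes (median 6.09). Homozygous libraries 5 and 8 were highest, at 8.13 and 7.12 CPM, and library 2, at 5.92 CPM, lay within the wild-type range. Homozygotes differed from wild type by 0.15 (SE 0.080) on the log2 scale and from heterozygotes by 0.21 (SE 0.081, edgeR adjusted p = 0.348). Without the 3 libraries these differences were 0.05 and 0.12.

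Dlx6as1 was the gene with the clearest separation. It ran from 15.0 to 18.4 CPM in wild type (median 17.5), from 17.7 to 19.1 CPM in heterozygotes (median 18.2) and from 19.0 to 25.3 CPM in homozygotes (median 21.8). Every homozygous library lay above every wild-type library, and 7 of 8 lay above every heterozygous one. The log2 difference of homozygotes from wild type was 0.35 (SE 0.057) and that from heterozygotes 0.26 (SE 0.056). Without homozygous libraries 2, 5 and 8 these were 0.27 and 0.17, and the remaining 5 libraries, at 19.0 to 22.5 CPM, lay above all wild-type libraries. The gene was known to be raised in homozygotes when it was chosen, so nothing is read from this separation. Heterozygotes differed from wild type by 0.10 (SE 0.060), with overlapping ranges. In the same homozygous libraries Sox4, a factor of immature neurons and 1 of 10 measured subventricular neuroblast markers, was at 20.5 ± 2.19 CPM (SD, n = 8) against 16.1 ± 1.11 CPM in wild type (SD, n = 6), and was the one gene of that list called (log2 change 0.35, edgeR adjusted p = 0.00327). Of the 10 markers, 8 had a positive difference, with a median log2 difference of 0.346, and of 0.31 without homozygous libraries 2, 5 and 8. Dcx differed by 0.35 (edgeR adjusted p = 0.141) and Cd24a by 0.49 (edgeR adjusted p = 0.205), and neither was called. Cd24a was highest in homozygous library 1, at 6.82 CPM, which also had the highest ependymal sum. The summed level of the list, 521.5 to 555.2 CPM in wild type and 519.1 to 571.8 CPM in homozygotes, is mostly that of the neuronal tubulin gene Tubb3, which differed by -0.04. The part of these other cells in the Dlx6as1 values was not tested.

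Dlx6, which lies within Dlx6as1 on the other strand, ran from 4.85 to 5.63 CPM in wild type (median 5.44), from 4.53 to 7.30 CPM in heterozygotes (median 5.33) and from 5.38 to 7.21 CPM in homozygotes (median 5.65). The value of 7.30 CPM came from heterozygous library 1, which had the high striatal marker sum, and 7.21 CPM came from homozygous library 2. The homozygous log2 difference from wild type was 0.13 (SE 0.083) and that from heterozygotes 0.09 (SE 0.083, edgeR adjusted p = 0.715), or 0.08 and 0.04 without homozygous libraries 2, 5 and 8. Heterozygotes differed from wild type by 0.04 (SE 0.089), and by -0.05 without library 1.

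Dlx5 ran from 3.09 to 4.64 CPM in wild type (median 4.03), from 3.91 to 5.09 CPM in heterozygotes (median 4.41) and from 3.96 to 5.82 CPM in homozygotes (median 4.43). The 3 genotypes overlapped, and homozygous libraries 2, 5 and 8 held the 3 highest homozygous values. Heterozygotes differed from wild type by 0.15 (SE 0.10) on the log2 scale and homozygotes by 0.19 (SE 0.094), or 0.07 without these 3 libraries. Homozygotes and heterozygotes differed by 0.04 (SE 0.094, edgeR adjusted p = 0.912), and by -0.08 without the 3 libraries.

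Lhx6 differed in the other direction. It ran from 20.2 to 25.3 CPM in wild type (median 22.4), from 20.4 to 23.6 CPM in heterozygotes (median 22.1) and from 18.2 to 21.7 CPM in homozygotes (median 19.7). Of the 8 homozygous libraries, 5 lay below every wild-type library and 6 below every heterozygous one. The log2 difference from wild type was -0.18 (SE 0.049), and -0.20 without homozygous libraries 2, 5 and 8. That from heterozygotes was -0.13 (SE 0.049, edgeR adjusted p = 0.332), and -0.15 without the 3 libraries (adjusted p = 0.408). Pvalb, the parvalbumin gene of medial eminence interneurons, was lowered in homozygotes against wild type by a log2 change of -0.32 (edgeR adjusted p = 0.00161), with a mean ± SD of 42.9 ± 3.40 CPM in 8 homozygous against 53.6 ± 4.27 CPM in 6 wild-type libraries. Sst, the somatostatin gene of the same lineage, had a mean ± SD of 192.0 ± 12.6 CPM in wild-type and 202.4 ± 15.1 CPM in homozygous libraries and did not pass the test.

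Satb1 differed little between genotypes. It ran from 126.3 to 134.7 CPM in wild type, from 124.9 to 136.2 CPM in heterozygotes and from 122.1 to 133.3 CPM in homozygotes, with medians of 132.1, 127.7 and 127.9 CPM. Homozygotes differed from wild type by -0.04 (SE 0.029) and from heterozygotes by -0.01 (SE 0.029, edgeR adjusted p = 0.895), and by -0.01 and 0.02 without homozygous libraries 2, 5 and 8. These 3, at 122.1, 122.1 and 125.3 CPM, and homozygous library 1, at 125.1 CPM, were each below every wild-type library.

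Sp8, the lowest gene of the 9, had as few as 84 counts in a library and the largest spread relative to its level in homozygotes. It ran from 1.20 to 2.51 CPM in wild type (median 1.48), from 1.25 to 1.70 CPM in heterozygotes (median 1.35) and from 1.45 to 3.95 CPM in homozygotes (median 2.05). Homozygous libraries 5, 8 and 2, at 3.95, 3.48 and 2.85 CPM, lay above every wild-type library, and the other 5 lay between 1.45 and 2.21 CPM, within the wild-type range. The top of that range came from wild-type libraries 3 and 2, at 2.51 and 1.92 CPM, which also had Eomes at 1.66 and 1.67 CPM. Wild-type libraries 5 and 6 were at 1.20 CPM. The log2 difference of homozygotes from wild type was 0.55 (SE 0.22), and 0.12 without homozygous libraries 2, 5 and 8. That from heterozygotes was 0.77 (SE 0.22, edgeR adjusted p = 0.238), and 0.34 without them (adjusted p = 0.495).

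Sp9, a close relative of Sp8, ran from 3.56 to 4.51 CPM in wild type (median 4.09), from 3.22 to 4.14 CPM in heterozygotes (median 3.83) and from 3.40 to 6.21 CPM in homozygotes (median 4.27). Homozygous libraries 5, 8 and 2 were again highest, at 6.21, 5.77 and 4.70 CPM. The log2 difference of homozygotes from wild type was 0.15 (SE 0.12) and that from heterozygotes 0.25 (SE 0.12, edgeR adjusted p = 0.425). Without these 3 libraries they were -0.07 and 0.04. Cir1, which shares exon bases with Sp9, had a mean ± SD of 33.8 ± 2.67 CPM in wild-type, 34.1 ± 2.02 CPM in heterozygous and 34.4 ± 3.17 CPM in homozygous libraries. The part of the olfactory bulb markers in the Dlx1, Sp8 and Sp9 values was not tested.

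**Figure D3:**
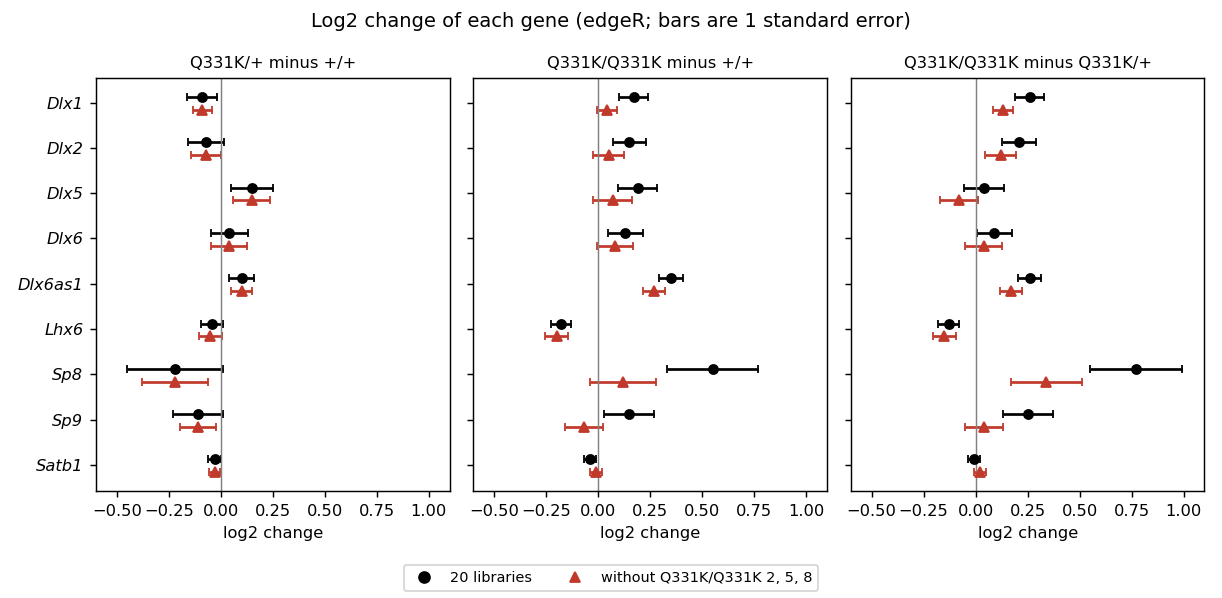
Log2 change of each gene (x axis) in the 3 comparisons of genotypes, with bars of 1 standard error; circles use the 20 libraries and triangles leave out homozygous libraries 2, 5 and 8. For Sp8 the change of homozygotes from wild type goes from 0.55 to 0.12, and for Dlx6as1 from 0.35 to 0.27.

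The question of these comparisons was which of the 9 genes differed with the number of Q331K alleles. Between heterozygotes and wild type 0 of 9 were called by edgeR at an adjusted p under 0.05, where 0.0% of the 16690 genes tested were called. At an unadjusted p under 0.05 the counts were 0 of 9 and 3.19% of all genes, and DESeq2 called 0 of 9 and 0.012% of all genes. The edgeR adjusted p was 1.0 for each of the 9. Beside the differences of Dlx5, Dlx6 and Dlx6as1 given above, heterozygotes differed from wild type on the log2 scale by -0.09 (SE 0.074) for Dlx1, -0.07 (SE 0.086) for Dlx2, -0.04 (SE 0.053) for Lhx6, -0.03 (SE 0.031) for Satb1, -0.22 (SE 0.23) for Sp8 and -0.11 (SE 0.12) for Sp9. The ranges of the 2 genotypes overlapped for all 9 genes. Between homozygotes and wild type the count was 1 of 9 with edgeR (1.56% of all genes) and 2 with DESeq2 (3.96% of all genes). Dlx6as1 is in both counts and was known to be raised there when the genes were chosen, so neither count is evidence about the 9 genes. Between homozygotes and heterozygotes edgeR called 0 of 9, where 0.108% of all genes were called. With Dlx6as1 set aside, 4 of the other 8 genes, Dlx1, Dlx2, Sp8 and Sp9, were higher at an unadjusted p under 0.05 (4.73% of all genes were) and 1, Lhx6, was lower, and 11.0% of all genes passed in either direction. DESeq2 called 2 of these 8, Dlx1 and Sp8, and 0.618% of all genes. Both counts include homozygous libraries 2, 5 and 8. Without them the differences of Dlx1, Dlx2, Sp8 and Sp9 were each smaller, as given above, and that of Lhx6 was not. These comparisons share libraries and are not independent of each other.

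The median log2 difference of the 9 genes was -0.045 for heterozygotes from wild type, 0.149 for homozygotes from wild type and 0.212 for homozygotes from heterozygotes, and over all genes it was 0.0017, 0.0013 and -0.0003. Without homozygous libraries 2, 5 and 8 the medians of the 9 genes were -0.046, 0.052 and 0.041, and without heterozygous library 1 as well they were -0.056, 0.048 and 0.104. Of the 9 genes, 3, 7 and 7 had a positive difference, and 3, 6 and 7 without the 3 libraries. For Dlx6as1 alone of the 9, all homozygous libraries were above wild type. Over all genes this was so for 0.264%, from which nothing is read, since the gene was known to be raised.

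The other transcription factors and RNAs of interneuron lineages, a list of 26 of which 24 were tested, gave 0 calls with edgeR between heterozygotes and wild type and 0 between homozygotes and heterozygotes, with 1 and 6 at an unadjusted p under 0.05, all higher. Between homozygotes and wild type 1 was raised and 0 lowered. The raised gene was Pax6, a paired homeobox factor also known in olfactory bulb neurons, with a log2 change of 0.31 (SE 0.068, edgeR adjusted p = 0.0188), with a mean ± SD of 10.4 ± 0.725 CPM in 8 homozygous against 8.40 ± 0.979 CPM in 6 wild-type libraries. Without homozygous libraries 2, 5 and 8 it was 0.26 and did not pass (edgeR adjusted p = 0.126). With these fewer libraries 79 of all genes were called in that comparison, against 261 with all libraries. Sox6, a factor of medial eminence interneurons, differed by -0.06 (edgeR adjusted p = 0.449) and the bZIP factor Maf by 0.04 (edgeR adjusted p = 0.636), and neither passed the test. The list's median log2 change was 0.034, 0.066 and 0.062 in heterozygotes from wild type, homozygotes from wild type and homozygotes from heterozygotes.

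Within genotypes, the genes were compared across the 20 libraries after the mean of each genotype was removed from log2 CPM. Of the 36 pairs, 24 had a positive Pearson's r and 4 passed adjustment over the 36 pairs by a permutation test within genotypes (100000 resamples, two-sided). The pairs that passed were Dlx1 with Sp9, Dlx1 with Sp8, Dlx2 with Dlx5 and Sp8 with Sp9. The 20 libraries share the sources of RNA described above, so r was also computed on the 16 libraries without homozygous libraries 2, 5 and 8 and heterozygous library 1. These 16 still hold wild-type libraries 2, 3 and 4 and homozygous library 1, with Eomes at 0.968 to 1.67 CPM. They are therefore not free of olfactory bulb markers, and r over them cannot show a relation without that source.

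Dlx1 and Sp9 had r = 0.85 (permutation p = 0.00017, adjusted p = 0.00612) and Spearman's rho = 0.81 (p = 0.00016, adjusted p = 0.00576). Without the 2 libraries farthest from the median of Dlx1, r was 0.75, and over the 16 libraries it was 0.70. Dlx1 and Sp8 had r = 0.79 (permutation p = 0.00046, adjusted p = 0.00828) and rho = 0.69 (p = 0.00303, adjusted p = 0.0364), with r = 0.66 without the 2 farthest and 0.52 over the 16. Within wild type, heterozygotes and homozygotes r was 0.87, 0.59 and 0.89 for Dlx1 with Sp9, and 0.74, 0.06 and 0.91 for Dlx1 with Sp8, which was thus near 0 in heterozygotes. Dlx1 lies on chromosome 2 with Sp9, and Sp8 lies on chromosome 12.

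Dlx2 and Dlx5, on different chromosomes, had r = 0.70 (permutation p = 0.00123, adjusted p = 0.0148) and rho = 0.75 (p = 0.00056, adjusted p = 0.0101). It was 0.70 without the 2 farthest libraries and 0.68 over the 16, and within wild type, heterozygotes and homozygotes it was 0.73, 0.78 and 0.71. Sp8 and Sp9 had r = 0.72 (permutation p = 0.00408, adjusted p = 0.0367) but rho = 0.59 (p = 0.0196, adjusted p = 0.13). Within the 3 genotypes it was 0.70, 0.07 and 0.81, again near 0 in heterozygotes. Their r was 0.60 without the 2 farthest and 0.25 over the 16 libraries. It was thus lower without the 4 libraries left out, although it was 0.70 within wild type, which lost no library. Of the pairs of overlapping or neighbouring genes, Dlx6 and Dlx6as1 had r = 0.23 (permutation p = 0.258, adjusted p = 0.387), and Dlx1 and Dlx2 r = 0.54 (permutation p = 0.0375, adjusted p = 0.135), which was -0.00 over the 16 libraries. The median r over the 36 pairs was 0.21, and 0.02 over the 16 libraries.

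**Figure D4:**
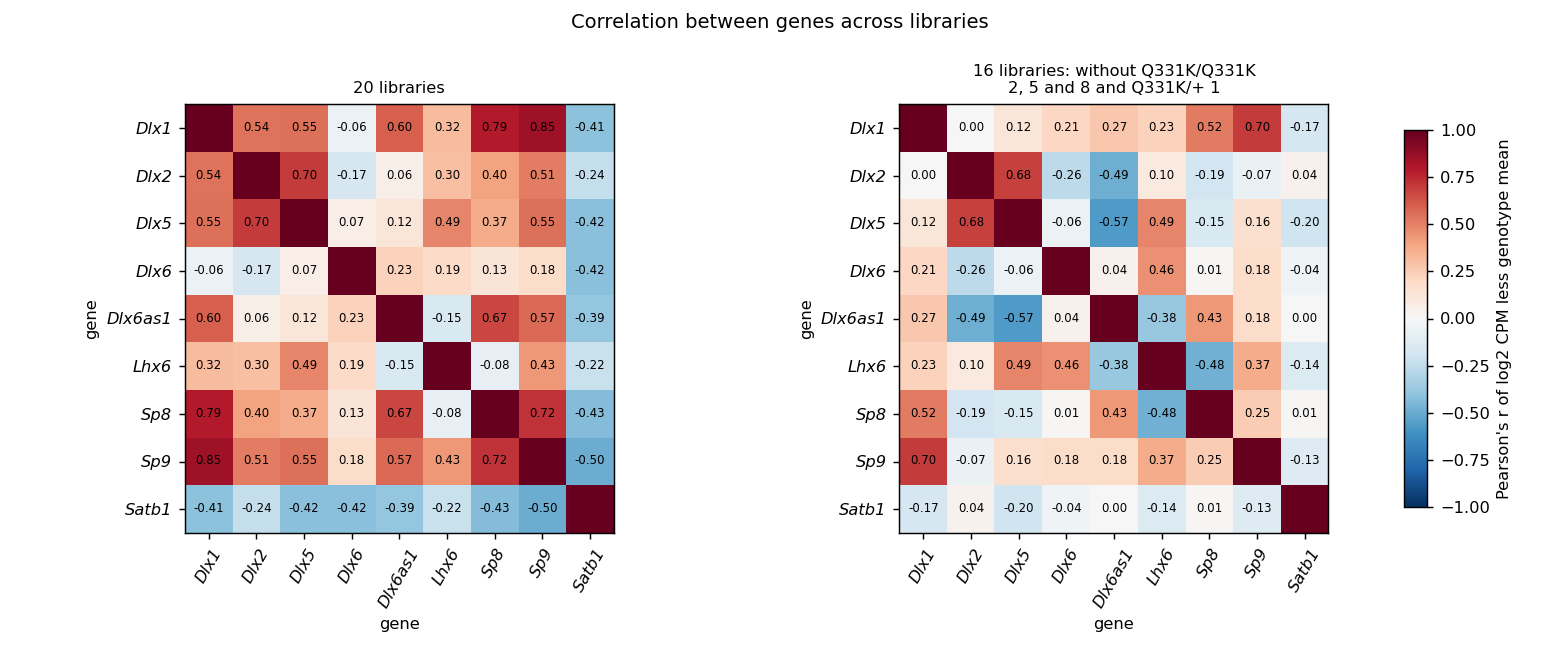
Pearson's r of log2 CPM less the genotype mean between each pair of the 9 genes, for the 20 libraries (left) and for the 16 libraries without homozygous libraries 2, 5 and 8 and heterozygous library 1 (right). Dlx1 with Sp9 goes from 0.85 to 0.70 and Sp8 with Sp9 from 0.72 to 0.25.

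The genes most like each of the 9 in the same 20 libraries were found among 12504 rows with a mean of at least 1 CPM, and they are named as a description, since the highest of many values was taken. For Sp8 they were Trh (r = 0.92), Th (0.92) and Calb2 (0.91), known markers of olfactory or other interneurons, and r was 0.88, 0.83 and 0.80 over the 16 libraries. For Dlx1 they were Th (0.89), Hap1 (0.87) and Pcbp3 (0.86), at 0.68, 0.74 and 0.74 over the 16 libraries. For Sp9 they were Hap1 (0.85), Nmb (0.84) and Nudt8 (0.83), at 0.60, 0.70 and 0.45. Th and Nmb are in the olfactory bulb list. For Dlx6 they were Gng7 (0.80), Slc5a7 (0.79) and Ppp1r1b (0.79), of which Ppp1r1b is in the striatal list, and over the 16 libraries r was 0.32, 0.25 and 0.49.

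For Dlx6as1 the nearest genes were Cdhr1 (0.79), which is in the olfactory bulb list, Doc2b (0.76) and Gadd45b (0.76), at 0.59, 0.57 and 0.57 over the 16 libraries. For Lhx6 they were Mkl1 (0.87), Cygb (0.86) and Pitpnm2 (0.85), at 0.89, 0.86 and 0.89. Those of Dlx2 were Heyl (0.79), Dnttip1 (0.78) and P2rx3 (0.76), those of Dlx5 Irak4 (0.82), Emx2 (0.76) and Lcat (0.75), and those of Satb1 Sel1l3 (0.79), Asap1 (0.73) and Adam11 (0.72). These values are a description of these libraries.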

How the data were processed

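RNA-seq of frontal cortex was analysed in 20 libraries grouped by the genotype in the labels. The deposited table holds raw counts for each gene, as whole numbers. Stranded libraries of polyadenylated RNA were made, per the labels' protocols, and Trim Galore 0.4.3, HISAT2 2.0.5 and GRCm38 were used, per the submitters' processing notes. How reads were counted, with which annotation and strand setting, is not given in the sources used here.

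A single model over the 20 libraries, with genotype as its term, was fitted with the quasi-likelihood test of edgeR 4.0.16 (R 4.3.3) after TMM scaling and filterByExpr, and p-values were adjusted by Benjamini-Hochberg over the 16690 genes left. Genes were called at an adjusted p under 0.05. Log2 CPM used a prior count of 2. Totals of 61282647 counts or more set the precision, and no 2 libraries were copies (smallest chi-square per degree of freedom 12.8 over 58 pairs within genotypes). On simulated counts with 200 changed genes of 16690 in each of 3 runs, 60.2% of changes of 0.3 on the log2 scale were recovered for homozygous against wild type, and 7.96% and 9.95% of the genes with that homozygous change for heterozygous against wild type and homozygous against heterozygous. Simulated heterozygotes lay at the midpoint.

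The genes, lists and comparisons were chosen with earlier results of these data known. All 9 genes, overlapping rows, called list genes with up to 4 others, and the 3 most correlated genes for each of the 9 are named, except that some list genes are not reported here. Exon lengths and overlaps are from GENCODE M21, promoters from RefSeq. Alternatives were DESeq2 1.42.0, its size factors, other filters, only the 2 genotypes compared, a replicate block, summed overlapping rows, and libraries left out.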

Additional observations from a re-analysis of the deposited data

Results flagged for a closer look

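A pair of libraries lay far from the rest of their genotype by Dixon's test, which was run on 27 groups (9 genes in 3 genotypes) and flags about 1 in 20 groups by chance. Dlx6 was at 7.30 CPM in heterozygous library 1, where the other 5 heterozygous libraries lay between 4.53 and 5.45 CPM. Dlx6 was also at 7.21 CPM in homozygous library 2, where the other 7 lay between 5.38 and 6.19 CPM. Heterozygous library 1 had the highest striatal marker sum (694.4 CPM), and homozygous library 2 had an olfactory bulb marker sum of 82.3 CPM. Their part in the Dlx6 values was not tested.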

How the results depend on the processing

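The number of genes called between heterozygotes and wild type was 0 under each alternative run. Between homozygotes and wild type it was 2 with DESeq2 and 2 with the replicate number as a block, in place of 1, and 1 to 2 when each library was left out in turn (2 without wild-type library 4 or homozygous library 7), the second gene being Lhx6. Dlx6as1 was known to be raised there, so its place in these counts says nothing about stability. Between homozygotes and heterozygotes it was 3 with DESeq2 in place of 0 (Dlx1, Sp8 and Dlx6as1, the last known to be high in homozygotes), and 0 to 1 when each library was left out (1, Dlx6as1, without wild-type library 6 or homozygous library 4). DESeq2 gave adjusted p = 0.0359 for Dlx1 and 0.0333 for Sp8 there. The replicate numbers did not pair the libraries: deviations of same-numbered libraries correlated at -0.18 to 0.20 over 18 pairs, and 0 of 18 correlated best with their own number. Of the log2 changes, 251 of the values for heterozygotes against wild type kept their direction and 2 reversed, both for Dlx6 (-0.05366 to 0.08764 when each library was left out, the lowest without heterozygous library 1, and -0.05688 without the 4 libraries with high olfactory or striatal markers). For homozygotes against wild type 249 kept their direction and shifted by less than the SD between libraries of a genotype. A further 2 kept their direction and shifted by more. Sp9 reversed, to -0.06828 without homozygous libraries 2, 5 and 8 and to -0.07179 without the 4. For homozygotes against heterozygotes 241 kept their direction and did not pass the test, 5 kept their direction and passed it, and 7 reversed. Dlx5 went to -0.007297 with the replicate block, -0.01676 to 0.08087 when each library was left out (the lowest without homozygous library 8), -0.0833 without the 3 libraries and -0.07579 without the 4. Satb1 went to -0.02327 to 0.002744 when each library was left out (the highest without heterozygous library 4), 0.02188 without the 3 and 0.01151 without the 4. The cause was not tested. Sp8 against wild type was 0.1228 without the 3 libraries and 0.1196 without the 4. Sp8 had the fewest counts, 84 in its lowest library. Small differences between heterozygotes and wild type were rarely recovered in simulations.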

Other observations

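Of 21 names of cortical interneuron markers, 18 were in the table by the names used. Their summed level was 1603 to 1661 CPM in wild type, 1587 to 1650 CPM in heterozygotes and 1520 to 1679 CPM in homozygotes, and 1 gene, Pvalb, was called, lower in homozygotes against wild type and against heterozygotes (log2 change -0.26, edgeR adjusted p = 0.0468). Without homozygous libraries 2, 5 and 8 these differences were -0.28 (edgeR adjusted p = 0.0112) and -0.22 (adjusted p = 0.153). With these fewer libraries 2 of all genes were called between homozygotes and heterozygotes, against 18 with all libraries. Reln, made by several interneuron types and by mitral cells of the olfactory bulb, ran from 64.7 to 80.6 CPM in wild type and from 75.4 to 117.6 CPM in homozygotes, with the highest values in libraries 8 (117.6 CPM) and 5 (106.2 CPM). Calb2, the calretinin gene, ran from 7.81 to 15.6 CPM in wild type and from 9.60 to 34.4 CPM in homozygotes. The Calb2 values of homozygous libraries 2, 5 and 8, which had high olfactory bulb markers, were 24.7, 34.4 and 33.8 CPM, and the other 5 were at 13.7 CPM or less, within the wild-type range. Gad1, which makes the transmitter GABA, had a mean ± SD of 328.5 ± 11.8 CPM in 6 wild-type and 307.3 ± 14.6 CPM in 8 homozygous libraries, and Gad2, its paralog, 150.3 ± 4.88 and 157.7 ± 7.80 CPM. Neither passed the test.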
